A study of Homo sapiens with 2 samples.

Results

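Antisense loci in ZNF zinc finger genes were described here. They were chosen by name: each locus of the authors' deposited table whose transcript is in GENCODE 44 was given that transcript's gene symbol, and all loci whose symbol begins with ZNF were taken, whatever their values. This gave 104 loci in 94 genes, out of 2016 loci in all, and the remaining 1912 loci served for comparison. Of these, 1869 belong to other genes and 43 lie on transcripts absent from GENCODE 44, which have no symbol here. The table names no assay and was read as one of global run-on sequencing (GRO-seq), the assay of the samples. GRO-seq captures RNA being made by polymerases in isolated nuclei and so gives the strand of active transcription. The reads came from 2 biological replicates of MDA-MB-231, an established human line (triple-negative breast cancer), at 10000000 cells per replicate; the paper calls these parental cells MDA-Par. The labels name no treatment, genotype or second condition, so the comparisons below are between loci of 1 cell line. The table gives 1 logASR and 1 P per locus and names no replicate, so these were read as values of both replicates together. Replicate spread could therefore not be estimated, and the depth of each library is unknown.

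ZNF genes mostly encode proteins with tandem C2H2 zinc fingers, small domains in which a pair of cysteines and a pair of histidines hold a zinc ion and each finger can contact a few bases of DNA. Many carry a KRAB domain, which recruits the corepressor TRIM28 and, through it, enzymes that methylate histones and silence chromatin, and many of their known targets are retroelements. The family grew by tandem duplication, and large clusters of it lie on chromosome 19. Alu elements, which occur throughout human 3′-UTRs, are short retroelements that descend from the 7SL RNA of the signal recognition particle.

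The symbol was checked against the encoded proteins. Of the 94 genes, 89 encode at least 2 C2H2 fingers, with a median of 11 fingers and up to 32. ZNF609, ZNF704, ZNF326 and ZNF830 had 1 finger of this pattern, and ZNFX1, an RNA helicase, had 0. A KRAB domain was found in 71 of the 94, or 75.5%.

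The sequences below show what the loci are made of. A 24-mer was called repeated when it has at least 10 copies on both strands of hg38 together. For a locus of repeated sequence, that of ZNF8, the 24-mer with the most copies is printed on the strand of the mRNA.
ZNF8: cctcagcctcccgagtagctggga
This 24-mer (chr19:58299226-58299249, plus strand) has 94147 copies in hg38.

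For loci without a repeated 24-mer the stretch at the midpoint is shown, and for ZNF335 the start of a zinc finger that lies in its locus, where capitals mark the codons of the first pair of cysteines.
ZNF93: tgaaagccacactcatccacatcc
ZNF354C: taacacgaggaagctgttaaaact
ZNF830: aaacacataagtcattgtaggtta
ZNF236: tcaccctgaccattaacaactcca
ZNF239: attgactgtaactgcaaagacatt
ZNF335: TGCctgcagTGCagctatcgttcccgccgc
The 24-mer of ZNF93 (chr19:19935130-19935153, plus strand) has 8 copies. Those of ZNF354C (chr5:179082520-179082543, plus strand), ZNF830 (chr17:34963162-34963185, plus strand), ZNF236 (chr18:76927996-76928019, plus strand) and ZNF239 (chr10:43557609-43557632, minus strand) have 1 copy each. The stretch of ZNF335 (chr20:45963488-45963517, minus strand) begins with a 24-mer of 1 copy.

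The logASR is the natural log of an odds ratio: the odds of antisense over sense reads within the locus, divided by those odds in the remaining part of its transcript. All logASR values below are the authors' values, read as pooled over both replicates, and q is P adjusted by the Benjamini-Hochberg method over all loci. The paper describes choosing antisense loci from GRO-seq by a logASR above 0.5 and an adjusted P below 0.01. The listed loci were thus already chosen on such values, so high shares past these thresholds were set in advance. The q used here was adjusted over these chosen loci only, so it is not the study's own. All 104 ZNF loci had a logASR above 0, among them 4 whose standard error, described below, was above 2. Values of the other loci ran down to -1.89, and their share above 0 was not counted. A logASR above 0.5 with a q below 0.01, the thresholds of the study for GRO-seq, was passed by 99 of 104 ZNF loci, or 95.2% (95% Wilson interval from 89.2 to 97.9), where 97.4% of all 2016 loci passed. A logASR above 1 with a q below 1e-05 was passed by 54, or 51.9% (interval from 42.4 to 61.3), where 60.9% of all loci passed. The study set these stricter thresholds for a later step with RNA-seq, not for GRO-seq. Both shares of all loci lay within the interval of the ZNF share, and no test was made of the difference. These intervals cover the counting of loci only, and loci that share a transcript or a repeat are not independent.

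The standard error of each logASR follows from its size and its P, and covers counting error alone. It exceeded 2, more than 4 counts of at least 1 read can give, in 4 ZNF loci, those of ZNF91, ZNF721, ZNF623 and ZNF770. Their logASR ran from 19.05 in ZNF770 to 21.75 in ZNF91, with a q of 0.994 in each, and they were left out of the medians below. ZNF91, a KRAB protein known for binding SVA retroelements, therefore has no usable value. The fifth locus that missed the thresholds lay in ZNF101, with a logASR of 0.74 (standard error 0.297) and a q of 0.0133.

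Over the other 100 ZNF loci the logASR ran from 0.74 to 6.38. Its median was 2.46 (95% interval of the median from 2.20 to 2.89), against 2.84 (2.77 to 2.93) over 1873 of the remaining loci, those without a symbol included. The median standard error was 0.501 in ZNF loci and 0.533 in the others, so both groups were measured with a like precision. The lower 95% bound of the logASR lay above 1 in 78 of the 100 ZNF loci and in 83.2% of the others. The intervals of both medians overlapped, and the values of the other loci, from -1.89 to 9.40, enclosed those of all 100 ZNF loci. Loci of other genes on chromosome 19 had a median of 3.06 (2.67 to 3.52, n = 70), and ZNF loci on chromosome 19 one of 2.41 (2.09 to 2.88, n = 60).

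**Figure D1:**
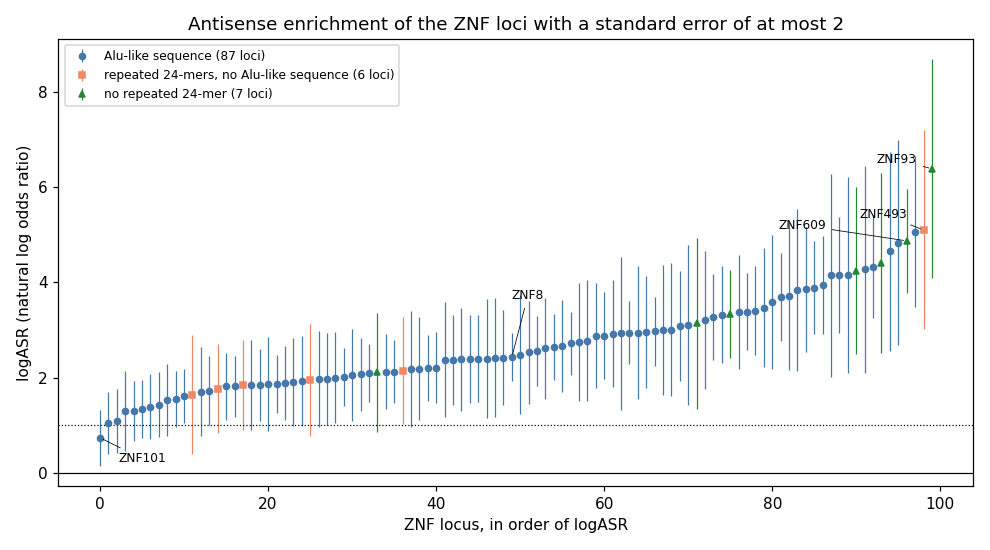
The logASR (natural log odds ratio) of the 100 ZNF loci with a standard error of at most 2, in order of size, with 95% intervals from the standard error that cover counting error only. Circles are loci with at least 30 nt of Alu-like sequence. Squares are loci with repeated 24-mers and less Alu-like sequence or none, and triangles loci without a repeated 24-mer. The dotted line is at 1, and the points run from 0.74 in ZNF101 to 6.38 in ZNF93 with wide and overlapping intervals.

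The 5 largest values among loci past the stricter thresholds lay in ZNF93, ZNF493, ZNF594, ZNF609 and ZNF830. ZNF93, a KRAB protein known for binding LINE-1 retroelements, had a logASR of 6.38 (95% interval from 4.08 to 8.68). Its locus of 291 nt (chr19:19934997-19935287, plus strand) begins 181 nt after the last coding base, in a 3′-UTR of 760 nt. A log odds ratio rests on 4 read counts, and its variance adds up their inverses, so the smallest of the 4 was 1 or 2 reads in ZNF93. In ZNF493 the logASR was 5.10 (standard error 1.06) and the smallest count at most 3. In ZNF594 the logASR was 5.06 (standard error 0.808), and in ZNF830 it was 4.41 (standard error 0.963). ZNF609, whose second exon is known as the source of a circular RNA, had a logASR of 4.87 (standard error 0.553), and its smallest count lay between 4 and 13 reads. The intervals of all 5 overlapped, and their order is not resolved at this depth.

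Among loci past the stricter thresholds, the 5 smallest standard errors lay in ZNF8, ZNF141, ZNF426, ZNF805 and ZNF431. In ZNF8, a KRAB protein, the logASR was 2.43 (95% interval from 1.92 to 2.94), with a smallest count between 16 and 60 reads. Its locus of 475 nt (chr19:58298914-58299388, plus strand) includes 266 nt of Alu-like sequence that runs opposite to the mRNA. The other values were 1.61 in ZNF141, 1.55 in ZNF426, 1.86 in ZNF805 and 2.09 in ZNF431, with standard errors from 0.291 to 0.310. All 5 lay below the median of the ZNF loci. They were picked by standard error, which rises as the smallest count falls, and the same counts set the logASR. How far the choice favours low values was not tested. Each of these loci held Alu-like sequence, as 87.5% of all ZNF loci did.

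The longest loci lay in ZNF486, ZNF626 and ZNF623, with 1742, 1692 and 1238 nt, where the median length was 314 nt in ZNF loci and 319.5 nt in the others. ZNF486 had a logASR of 3.39 (standard error 0.412) and ZNF626 one of 4.33 (standard error 0.556), while that of ZNF623 had a standard error above 2. Of the 94 genes, 9 had more than 1 locus, or 9.57%, against 9.73% of the other genes with a locus. The largest number was 3, in ZNF207, which encodes a protein that binds spindle microtubules and the checkpoint protein BUB3. Its loci, in order along a 3′-UTR of 12129 nt, had a logASR of 2.94 (standard error 0.339), 2.21 (0.384) and 3.89 (0.499). The intervals of the second locus (1.46 to 2.96) and the third (2.91 to 4.87) overlapped only at their ends.

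The loci lay almost wholly in 3′-UTRs. The midpoint fell in the 3′-UTR for 100 of 104 ZNF loci, or 96.2% (95% Wilson interval from 90.5 to 98.5), against 86.8% (85.1 to 88.2) of the 1812 other loci that could be placed. It fell in the coding sequence for 4 ZNF loci, or 3.85%, against 10.4% of the others, and in the 5′-UTR for 0 ZNF loci and 52 others. In 101 ZNF loci, or 97.1%, the whole locus lay in the last exon, against 87.3% of the others. In many ZNF genes the last exon also encodes the finger array, yet only 1 locus, that of ZNF335, overlapped a C2H2 finger. The 5′ end of the 3′-UTR loci lay a median of 1556.5 nt past the last coding base in ZNF genes and 1580 nt in the others. The midpoint lay a median of 53.2% along the 3′-UTR in ZNF genes and 54.1% in the others. The 3′-UTRs themselves had a median length of 4168 nt in ZNF transcripts with a locus and 3358.5 nt in the others.

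The 4 loci in coding sequence were those of ZNF239, ZNF236, ZNF335 and ZNF609, and all 4 were free of repeated 24-mers. ZNF335, a factor known for its role in neural progenitor cells, had a logASR of 3.34 (standard error 0.472). Its locus of 396 nt covers parts of 6 exons (chr20:45960361-45963534, minus strand) and 5 fingers. The locus of ZNF609 (chr15:64499362-64499749, plus strand) spans 388 nt of 1 exon, and its 5′ end lies upstream of the start codon. In ZNF239 the logASR was 3.14 (standard error 0.916), with a smallest count between 2 and 4 reads. In ZNF236 it was 2.11 (standard error 0.641), for a locus made of 3 exon pieces (chr18:76927472-76937183, plus strand). A locus that crosses exon junctions is an interval of the spliced transcript to which the reads were mapped, and its reads need not cross the introns.

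**Figure D2:**
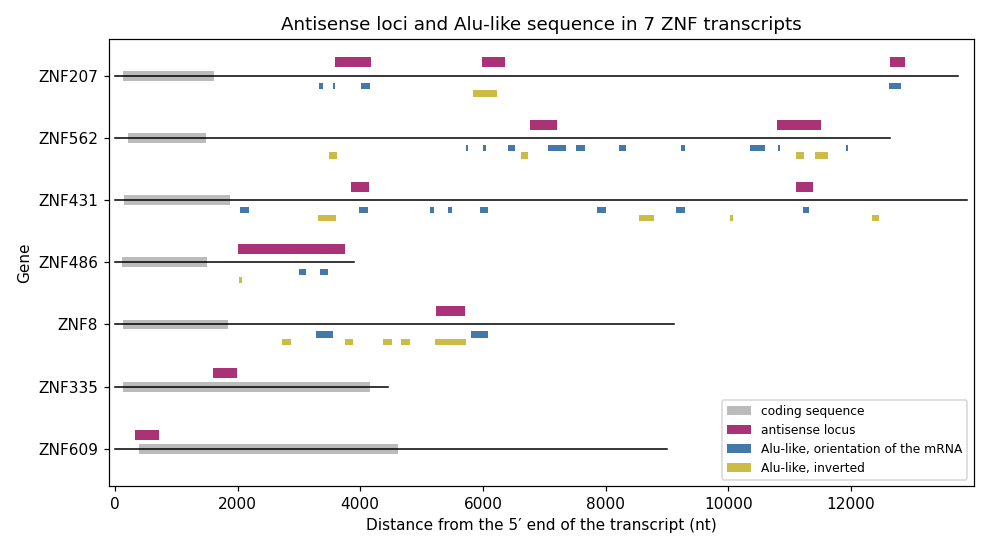
Maps of 7 ZNF transcripts, with the distance from the 5′ end of the transcript in nt on the x axis, coding sequence in grey, antisense loci in purple and Alu-like sequence in blue (orientation of the mRNA) or yellow (inverted). The loci of ZNF207, ZNF562, ZNF431, ZNF486 and ZNF8 lie in the 3′-UTR beside or over Alu-like sequence, and those of ZNF335 and ZNF609 lie in or at the start of coding sequence with no Alu-like sequence on the transcript.

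Alu-like sequence, found by alignment to 7SL RNA, was frequent in these loci. A stretch of at least 30 nt was present in 91 of 104 ZNF loci, or 87.5% (95% Wilson interval from 79.8 to 92.5), against 73.1% (71.0 to 75.1) of the other placed loci. It ran in the orientation of the mRNA only in 58 ZNF loci, or 55.8%, inverted only in 24, or 23.1%, and in both orientations in 9; the shares were 42.4%, 26.0% and 4.69% in the other loci. The median Alu-like length was 118 nt in both groups. Of the 13 ZNF loci without such a stretch, 6 held repeated 24-mers, those of ZNF250, ZNF440, ZNF471, ZNF493, ZNF662 and ZNF704. Among these, ZNF440, ZNF662 and ZNF704 held 25, 18 and 26 nt of Alu-like sequence, short of the 30 nt asked for.

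Counts of 24-mers gave the same order without an alignment. Only 7 ZNF loci, or 6.73% (interval from 3.30 to 13.2), held no repeated 24-mer, against 19.4% (17.7 to 21.3) of the others. The median share of repeated 24-mers was 69.2% in ZNF loci and 60.0% in the others. In the rest of the same transcripts it was 9.38% and 2.39%, so ZNF transcripts held more repeated sequence outside the loci as well. The share in the locus exceeded that in the rest of the transcript in 97 of 104 ZNF loci, and all 24-mers were repeated in 3 loci. ZNF93 went the other way, with no repeated 24-mer in the locus and 20.4% in the rest of the transcript. Of the 104 loci, 97 shared at least 1 24-mer with the transcript of another ZNF gene. This was not counted for the other loci, so it is not shown to be particular to ZNF genes. The locus of ZNF26 shared 24-mers with 210 ZNF genes, and that of ZNF471 with 1. A read from a shared stretch can match several transcripts. How the mapping assigned such reads is not given in the sources used here, and their part in the logASR was not tested.

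**Figure D3:**
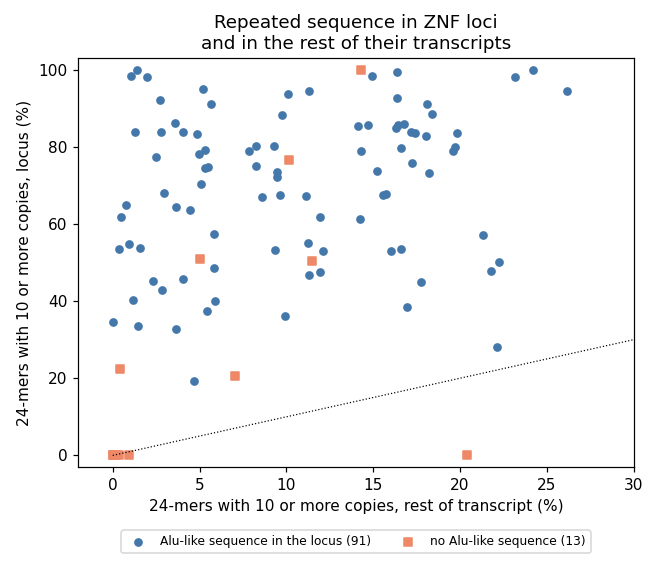
Percent of 24-mers with at least 10 copies in hg38 in each of the 104 ZNF loci (y axis) against that in the rest of the same transcript (x axis), with circles for loci with Alu-like sequence and squares for those without; the dotted line marks equal shares. The points of 97 loci lie above the line, and the square at 20.4% on the x axis and 0 on the y axis is ZNF93.

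The 7 ZNF loci without a repeated 24-mer were those of ZNF93, ZNF354C, ZNF830, ZNF239, ZNF236, ZNF335 and ZNF609. Their logASR ran from 2.11 in ZNF236 to 6.38 in ZNF93, with a median of 4.25, the value of ZNF354C, against 2.42 over the 93 ZNF loci with repeats. In the other genes the medians were 3.36 over 351 loci without and 2.75 over 1426 with repeats, so the order was the same. The loci without repeats were also the less precise ones, with a median standard error of 0.890 against 0.491 in ZNF genes and of 0.680 against 0.505 in the others. Neither difference in logASR was tested, and the 7 values overlapped with those of the 93. ZNF354C, another KRAB protein, had a logASR of 4.25 (standard error 0.890) and ZNF830 one of 4.41, both in the 3′-UTR and with a smallest count of at most 5 reads. With 24-mers called repeated from 2 copies, 4.81% of ZNF loci held none. ZNF93 and ZNF354C drop out at that cutoff, with 8 copies at the midpoint of ZNF93 and up to 2 in ZNF354C.

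Alu-like stretches without a locus were common in the same transcripts. In the 3′-UTRs of ZNF transcripts with a locus, 115 of 274 Alu-like stretches overlapped one, or 42.0% (95% Wilson interval from 36.3 to 47.9), against 53.2% (51.4 to 55.0) in the other genes. Of the stretches in the orientation of the mRNA, 78 of 143 did, or 54.5% (46.4 to 62.5), against 60.7% (58.2 to 63.0) in the other genes. Of the inverted stretches, 37 of 131 did, or 28.2% (21.2 to 36.5), against 44.5% (41.9 to 47.1). The share was thus higher for the orientation of the mRNA than for the inverted one in both groups, and the intervals of both orientations were apart in each. ZNF26 had 15 stretches, 1 of them with a locus, and ZNF562 had 14, 4 of them with a locus. Only transcripts with a locus were counted, so these shares depend on how many stretches a transcript carries. Among 3′-UTRs with a stretch the median was 2 in both groups. More than 1 stretch was present in 57 of 85 ZNF 3′-UTRs and in 685 of 1256 others. A lower share in ZNF genes therefore does not show that their stretches carry loci less often. Stretches of 1 transcript share its reads, and no test was made of these shares.

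Few ZNF loci met an annotated exon on the opposite strand. The span of such a gene overlapped 18 of 104 ZNF loci, or 17.3% (interval from 11.2 to 25.7), against 19.2% of the others. An exon of such a gene overlapped 1 ZNF locus, or 0.962% (0.170 to 5.25), against 8.72% (7.51 to 10.1) of the others. That locus was the one of ZNF354C, of which 37 nt overlap the processed pseudogene ENSG00000253144. In the other 17 loci the opposite gene covered the midpoint with an intron. By the largest overlap, these genes were lncRNAs for 12 loci and protein-coding for 5. The lncRNA ZNF561-AS1 covers both loci of ZNF562, and ENSG00000269043 both loci of ZNF737. Other lncRNAs were ZKSCAN7-AS1 over ZNF197, ENSG00000267565 over ZNF253, ENSG00000267383 over ZNF486, ZNF8-DT over ZNF544, ENSG00000267063 over ZNF555, FLJ40194 over ZNF652, ENSG00000281016 over ZNF721 and ENSG00000269102 over ZNF766. The protein-coding genes were GSK3A over ZNF526, ZNF814 over ZNF587, ENSG00000268163 over ZNF749, ZNF490 over ZNF791 and CCT6B over ZNF830. The median logASR was 2.19 over 17 loci with an opposite-strand gene and 2.54 over 83 without, and the difference was not tested.

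The family was also counted by gene, since the table lists only loci and not the genes without one. Of 513 protein-coding ZNF genes in GENCODE 44, 94 had a locus, or 18.3% (95% Wilson interval from 15.2 to 21.9), where 8.99% of all 19689 protein-coding genes had one. The share was 8.74% (8.35 to 9.15) in the 19176 other genes. A locus past the stricter thresholds was present in 49 ZNF genes, or 9.55%, where 5.67% of all genes had one. Genes that are silent in MDA-MB-231 stay in these denominators, because no expression values were used here.

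ZNF genes differed from other genes in their 3′-UTRs. Length and Alu-like content were taken from the GENCODE 44 isoform with the longest coding sequence, which need not be the transcript that carries the locus. Of the 94 ZNF genes with a locus, 82 had Alu-like sequence in the 3′-UTR of that isoform. An Alu-like stretch was present in the 3′-UTR of the transcript with the locus in 85. Alu-like sequence was present in the 3′-UTR of 208 of the 513 ZNF genes, or 40.5%, and of 17.8% of the others, and the median 3′-UTR was 1580 nt and 858 nt long. Among genes with Alu-like sequence there, 39.4% of ZNF genes (82 of 208, interval from 33.0 to 46.2) and 35.4% of other genes (33.8 to 37.0) had a locus. Among genes without it the shares were 3.93% (12 of 305, 2.26 to 6.75) and 2.98% (2.73 to 3.26). The intervals overlapped in both comparisons, whereas those over all genes did not. In genes with Alu-like sequence and a 3′-UTR of 4000 nt or more, 43 of 70 ZNF genes had a locus, or 61.4% (49.7 to 72.0), against 46.7% (43.8 to 49.6) of other genes. From 2000 to 3999 nt the shares were 36.2% and 37.6%. From 1000 to 1999 nt they were 29.8% and 23.1%. Below 1000 nt, 0 of 22 ZNF genes had a locus, against 18.5% of other genes (14.9 to 22.8). A count of 0 in 22 allows a share of up to 13.6%, taken as 3 counts of the total, or of up to 14.9% by the Wilson interval. The intervals of both groups overlapped from 1000 to 1999 nt and from 2000 to 3999 nt, and no test was made in any class. Past the stricter thresholds the order over genes with Alu-like sequence turned, with a locus in 20.2% of ZNF genes (42 of 208, interval from 15.3 to 26.2) and in 23.7% of other genes (22.3 to 25.1). By length these shares were 6.38% and 13.8% from 1000 to 1999 nt, 17.4% and 24.6% from 2000 to 3999 nt, and 38.6% and 34.5% from 4000 nt, and the intervals overlapped in each of these classes.

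**Figure D4:**
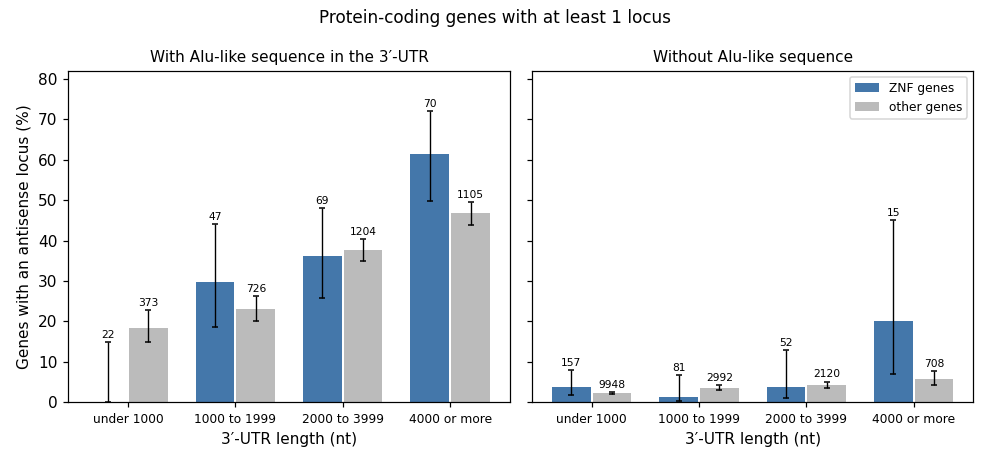
Percent of protein-coding genes with at least 1 antisense locus, by 3′-UTR length in nt, for genes with (left) and without (right) Alu-like sequence in the 3′-UTR. Bars give the share in ZNF genes (blue) and other genes (grey), error bars the 95% Wilson intervals and the number over each bar the genes in it; at 4000 nt or more with Alu-like sequence the shares were 61.4% and 46.7%.

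The KRAB domain and the chromosome were described in the same way. A locus was present in 20.6% of 344 ZNF genes with a KRAB match (16.7 to 25.2) and in 13.6% of 169 without (9.24 to 19.6). Among genes with Alu-like sequence in the 3′-UTR the shares were 38.9% and 41.5%. The median logASR was 2.41 over 78 loci of KRAB genes and 2.96 over 22 loci of the others. On chromosome 19, 54 of 248 ZNF genes had a locus, or 21.8% (17.1 to 27.3), against 15.1% (11.3 to 19.9) of those elsewhere and 5.49% (4.33 to 6.94) of the other genes of chromosome 19. With Alu-like sequence the shares were 39.5% on chromosome 19 and 39.3% elsewhere. The intervals of the KRAB groups overlapped, as did those of both locations, and none of these differences was tested.

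Chromosome 19 held 61 of the 104 ZNF loci, or 58.7% (49.0 to 67.6), against 3.75% of the loci of other genes, and the other 43 lay on the remaining chromosomes. With or without a locus, 248 of the 513 protein-coding ZNF genes lie on chromosome 19. How far the place of the family accounts for the share of loci was not tested. Loci no more than 500 kb apart were joined to runs. The largest run had 17 loci in 14 genes from ZNF101 to ZNF43 (chr19:19680275-21805616), where 21 ZNF genes lie, 15 of them with Alu-like sequence in the 3′-UTR. The run from ZNF766 to ZNF813 (chr19:52291476-53494845) had 9 genes with a locus among 28 ZNF genes, and 17 of the 28 had Alu-like sequence. The run from ZNF264 to ZNF8 (chr19:57216067-58299388) had 9 loci in 8 genes among 36 ZNF genes, and 23 of the 36 had Alu-like sequence. The runs were drawn from the loci themselves, so these counts describe where the loci lie and do not compare the clusters.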

How the data were processed

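GRO-seq was performed by the authors on 2 replicates of MDA-MB-231. The reads were trimmed with cutadapt 1.18 and mapped with Bowtie2 2.3.5, per the labels' processing notes, to 1 isoform per gene, that with the longest coding sequence. Antisense reads were counted in windows of 500 nt with a step of 250 nt and tested by logistic regression, and significant windows were merged. The paper then asked for RNA polymerase II signal in ChIP-seq and antisense signal in stranded RNA-seq. Its final set is far smaller than the 2016 loci, which were read as candidates from before those steps. Which ZNF loci it kept was not examined. The deposited logASR is on a natural log scale, and the deposited p-value is that of the authors' regression. The q-values were recomputed from it over all 2016 loci. Replicates have no columns of their own, so depth is unknown. No assay is named in the table; it was read as GRO-seq, the assay of the samples.

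Row names were read as 0-based transcript positions and placed on hg38 with GENCODE 44, an annotation release other than the paper's. Standard errors are the logASR over the normal quantile of P. Regions follow the midpoint, with the stop codon in the 3′-UTR. Alu-like sequence was found with BLAST 2.17.0 against 7SL RNA (e-value 1e-05, at least 30 nt), KRAB domains by a match to the first 90 residues of ZNF10, and fingers by pattern, both in translated GENCODE coding sequences, since no protein table was given. Copies of 24-mers were counted on 24 chromosomes. Other loci served as comparison without a test; Wilson intervals are at 95%. The tools were numba 0.67.0, pandas 2.3.3, scipy 1.17.1 and numpy 2.4.6 under Python 3.11.15. Calculations were tested on simulated data: 500 of 500 placements and 2000 of 2000 standard errors were recovered.

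The members and lists were chosen with earlier results of these data known. Named loci were the 5 largest and 5 most precise past the stricter thresholds, the 3 longest, those of the gene with most loci, those outside the 3′-UTR, under an opposite-strand gene or short of the thresholds, and ZNF91 and ZNF93. Loci named for their repeats or their place on chromosome 19 were chosen after their values were seen. Some sequences of the loci are not reported here.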

Additional observations from a re-analysis of the deposited data

How the results depend on the processing

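Of 44 alternatives over 9 results, 34 kept the count within 1.5 times, or the median or share within its interval. With a Bonferroni correction, the loci past a logASR of 0.5 fell from 99 to 54 and those past a logASR of 1 from 54 to 24. The median logASR of 2.46 became 4.25 over the 7 loci without a repeated 24-mer, an alternative chosen after seeing the data. The share in the 3′-UTR, 96.2%, was 69.2% over loci without Alu-like sequence and 42.9% over those without a repeated 24-mer, which left 13 and 7 loci. Alu-like sequence of at least 100 nt was present in 56.7% rather than 87.5%. An exon of an opposite-strand gene overlapped 0.962% of the loci rather than the 17.3% overlapped by its span. The share of ZNF genes with a locus, 18.3%, was 9.55% past the stricter thresholds, 39.4% with Alu-like sequence in the 3′-UTR and 3.93% without it, the last chosen after seeing the data. The cause was not tested. No paired analysis was possible because the table holds no value per replicate, and for the same reason leaving out each replicate was not run. Read depth, the spread between replicates and the treatment of reads that match several transcripts are unknown, and the standard errors cover counting error only.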

Other observations

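Some of the corepressors through which KRAB proteins act also had loci. Of 18 listed genes, 4 had a locus, or 22.2% (95% Wilson interval from 9.0 to 45.2), where 8.99% of all protein-coding genes had one. The lower end of the interval lay next to that share, and no test was made. TRIM28 and SETDB1, both on the list, had no locus. All 6 of their loci passed the stricter thresholds (logASR above 1, q below 1e-05), as 60.9% of all loci did. CBX5, which encodes heterochromatin protein HP1 alpha, had 3 of them in the 3′-UTR, whose logASR values as deposited were 2.10, 2.52 and 2.82, and each held Alu-like sequence. MPHOSPH8, a subunit of the HUSH silencing complex, had a logASR of 2.34 and HDAC2, a histone deacetylase, one of 4.31. Both loci lay in the 3′-UTR and held Alu-like sequence, of 119 and 283 nt. Whether the listed genes differ from others in 3′-UTR length or Alu-like content was not examined. CBX3, which encodes HP1 gamma, had a locus in the 5′-UTR with a logASR of 4.93 (standard error 0.660) and no Alu-like sequence.

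Among 142 genes of other zinc finger families, chosen by symbol, 11 had a locus, or 7.75% (95% Wilson interval from 4.38 to 13.3), beside 8.99% of all protein-coding genes and 18.3% of ZNF genes. Alu-like sequence was present in the 3′-UTR of 23.9% of these 142 genes and of 40.5% of ZNF genes. The list by symbol includes ZFP36L1, whose fingers are of another type. The most precise of their 13 loci lay in ZKSCAN3, with a logASR of 4.04 (standard error 0.217). ZBTB11 had the largest value with a standard error of at most 2, a logASR of 6.99 (standard error 1.15) in coding sequence without Alu-like sequence.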
